A study of Mus musculus with 46 samples.

Results

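The muscarinic acetylcholine receptors are encoded in the mouse by 5 genes, Chrm1 to Chrm5. They were taken as a gene family, by symbol, and all 5 were found among the 22800 genes of the count table. The cells were 46 oriens-lacunosum moleculare (OLM) interneurons, inhibitory cells of the hippocampus whose axons reach the distal dendrites of pyramidal cells. Of these, 23 came from an Sst Cre driver line and 23 from an Htr3a Cre driver line, in which Cre is driven by the somatostatin gene or by a serotonin receptor gene. All were labelled mature neural cells of animals at postnatal day 21 to 30, with no treatment named, and each library holds the RNA of the cytosol aspirated from 1 patched cell. A Cre line can mark a cell whose driver gene was active earlier, and the labels name no reporter allele. No animal is named for any cell, so a line is 1 sample, the lines are compared without a test, and spreads are between cells.

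Muscarinic receptors are G protein-coupled receptors that carry the slow actions of acetylcholine. Those encoded by Chrm1, Chrm3 and Chrm5 couple to Gq proteins, which activate phospholipase C and can close M-type potassium channels. Those encoded by Chrm2 and Chrm4 couple to Gi and Go proteins, which inhibit adenylyl cyclases and open inwardly rectifying potassium channels. In the hippocampus, septal axons release acetylcholine onto interneurons, and muscarinic agonists are known to depolarize OLM cells.

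The coding sequences of the family are alike around the Asp-Arg-Tyr codons at the inner end of the third transmembrane segment, and this stretch is shown to let the members be set against each other. Each window holds 60 bases of the GENCODE M21 transcript on GRCm38, written 5′ to 3′ on the coding strand. The 24 positions at which not all 5 genes are alike are in capitals, and the other 36 are shared by all.
Chrm1: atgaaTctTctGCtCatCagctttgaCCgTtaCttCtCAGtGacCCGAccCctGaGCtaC
Chrm2: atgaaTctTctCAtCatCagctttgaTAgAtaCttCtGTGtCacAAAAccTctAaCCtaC
Chrm3: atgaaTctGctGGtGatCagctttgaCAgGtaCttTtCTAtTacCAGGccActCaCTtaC
Chrm4: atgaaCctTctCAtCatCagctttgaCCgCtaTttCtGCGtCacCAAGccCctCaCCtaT
Chrm5: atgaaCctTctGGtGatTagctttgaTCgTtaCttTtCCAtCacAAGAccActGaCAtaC
The windows lie at chr19:8678272-8678331 (+) for Chrm1, chr6:36523543-36523602 (+) for Chrm2 and chr13:9878474-9878533 (-) for Chrm3. Those of Chrm4 and Chrm5 lie at chr2:91927606-91927665 (+) and chr2:112480356-112480415 (-). Within the Gq-coupled class, Chrm3 and Chrm5 shared 48 of 60 bases and Chrm1 and Chrm3 shared 45. The Gi-coupled genes Chrm2 and Chrm4 shared 49, against 44 for Chrm2 and Chrm3 and 43 for Chrm3 and Chrm4. Chrm1 shared 46 with each of Chrm2, Chrm4 and Chrm5, so the likeness of this stretch did not follow the coupling class throughout. Over the whole transcripts no member shared a stretch of 31 bases with another member, so a read of that length or longer without mismatches belongs to 1 member.

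All 5 genes are protein-coding, and the coding sequence of each lies in 1 exon. Chrm1 spans chr19:8663789-8683587 (+), with 6.487 kb of merged exons. Chrm2 spans chr6:36388084-36528414 (+), with 6.053 kb. Chrm3 spans chr13:9875486-10360847 (-), with 6.253 kb spread over 485.4 kb. Chrm4 lies at chr2:91927249-91928688 (+), with 1.44 kb, and Chrm5 at chr2:112479171-112480769 (-), with 1.599 kb. These models of Chrm4 and Chrm5 hold the coding sequence and its stop codon and no untranslated region, while the RefSeq genes span 7647 and 57629 bases. The labels do not give the authors' annotation, and with a model like this one, reads from untranslated parts of Chrm4 and Chrm5 would not be counted. Exons of Chrm1 overlap those of Gm22820 and exons of Chrm2 those of 9330158H04Rik, each on the opposite strand. Of their 31-base words, 5.28% (Chrm1) and 1.73% (Chrm2) also occur in other genes, and since the strand setting is not given, a few reads of these genes are uncertain.

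The libraries held a median of 16726879 reads assigned to genes in the Sst line (5639490 to 31386369) and 15336981 in the Htr3a line (3391829 to 26136222). Genes with a read numbered 6569 in the median Sst-line cell (3225 to 8774) and 8169 in the median Htr3a-line cell (3350 to 12693). Of the OLM markers, Sst and Crhbp were read in all 23 cells of each line, Reln in 23 Sst-line cells and 22 Htr3a-line cells, and Chrna2 in 6 Sst-line cells and 10 Htr3a-line cells. Gad1 and Gad2 were read in every cell. Cells 4 and 20 of the Htr3a line stood apart with 4 and 24 reads of Gad1, the GABA-making enzyme, where every other cell had at least 1634. The other listed GABAergic genes were not low throughout in these cells. Cell 4 had 4975 reads of Gad2 and 64 of Slc32a1, and cell 20 had 5 reads of Gad2 and 1487 of Slc32a1. Line differences printed for single genes are given both ways where they moved by over 1.5 times without cells 4 and 20.

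Chrm3 was the muscarinic receptor gene most often read in both lines, and Chrm5 was not read in any cell. At least 1 read of Chrm3 was found in 11 of 23 Sst-line cells (47.8%, exact Clopper-Pearson 95% interval 26.8 to 69.4), and the Htr3a line had 17 such cells of 23 (73.9%, 51.6 to 89.8). Chrm1 was read in 4 Sst-line cells (17.4%, 4.95 to 38.8) and 2 Htr3a-line cells (8.70%, 1.07 to 28.0). Chrm2 was read in 2 cells of each line. Chrm4 was read in 3 Sst-line cells (13%, 2.78 to 33.6) and 1 Htr3a-line cell (4.35%, 0.11 to 21.95). The intervals of the lines overlapped for every member. They, like the intervals of summed counts below, cover counting error only, since no molecular identifiers are named and cells of 1 animal cannot be told from cells of several.

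**Figure D1:**
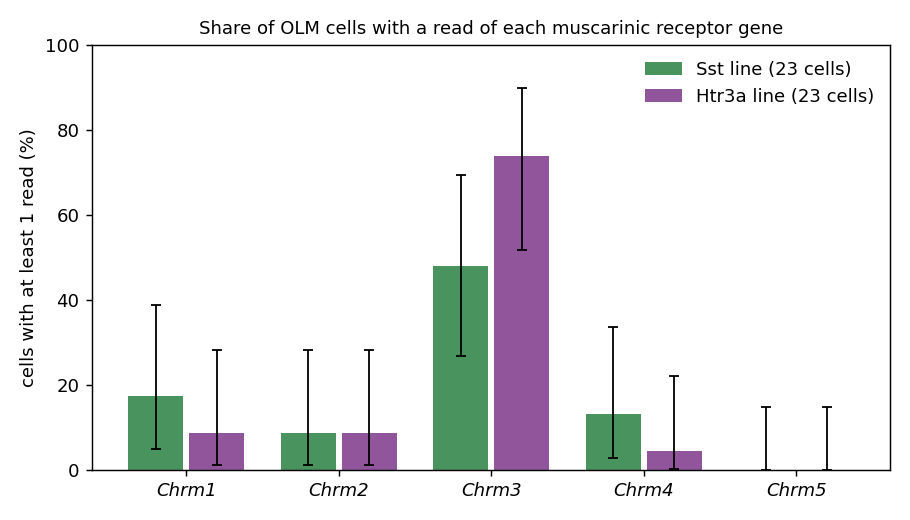
Percent of cells with at least 1 read of each muscarinic receptor gene, in the Sst line (left of each pair) and the Htr3a line, 23 cells each. Bars are shares and whiskers exact 95% intervals, and Chrm3 is read most often in both lines, at 47.8% and 73.9%.

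Chrm3 encodes the Gq-coupled receptor best known from smooth muscle and glands, which is also made in hippocampal neurons. Its levels are given as counts per 1000000 reads of the cell (CPM). In the 11 Sst-line cells with a read, Chrm3 ranged from 0.0569 CPM (1 read, cell 23) through a median of 25.2 to 94.0 CPM (2188 reads, cell 19). In the 17 Htr3a-line cells with a read it ranged from 0.619 CPM (6 reads, cell 8) through a median of 9.34 to 307.1 CPM (2755 reads, cell 4). The ranges overlapped, the Htr3a line holding the highest cells and the Sst line the lowest non-zero ones.

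The cells of the lines were spread differently over that range. Above 20 CPM lay 6 Sst-line cells, cells 5, 7, 11, 12, 19 and 22, at 32.1, 43.4, 49.3, 25.2, 94.0 and 32.9 CPM. The Htr3a line had 3 cells above 20 CPM: cell 4 at 307.1, cell 5 at 213.1 and cell 22 at 56.0 CPM. Between 5 and 15 CPM lay 1 Sst-line cell, cell 8 at 5.67 CPM, and 10 Htr3a-line cells at 6.96 to 13.5 CPM. Below 5 CPM lay 4 cells of each line, at 0.0569 to 2.12 CPM in the Sst line and 0.619 to 1.98 CPM in the Htr3a line. These bands were chosen after the values were seen.

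On the log2 CPM scale the interquartile range of Chrm3 over the cells with a read was 4.29 for the Sst line and 0.93 for the Htr3a line, or 1.38 without Htr3a-line cells 4 and 20. The Sst-line value includes cells 23 and 15, with 1 and 2 reads of Chrm3, while the lowest Htr3a-line cell had 6 reads. A range at a higher minimum of reads is not given, so the wide Sst-line spread may rest in part on these cells. Genes read in a like number of cells had a median interquartile range of 2.36 in the Sst line (2733 genes read in 9 to 13 cells) and 2.13 in the Htr3a line (3149 genes read in 15 to 19 cells). Of those genes, 81.0% were as narrow as Chrm3 or narrower in the Sst line; the Htr3a-line share was 3.4%. The median level of Chrm3 in positive cells was 25.2 CPM in the Sst line, where the median over such genes was 46.4 CPM. In the Htr3a line these values were 9.34 and 49.7 CPM. Of these genes, 29.0% (Sst line) and 8.92% (Htr3a line) had a median as low as that of Chrm3. Chrm3 thus stood low among them in the Htr3a line more than in the Sst line.

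**Figure D2:**
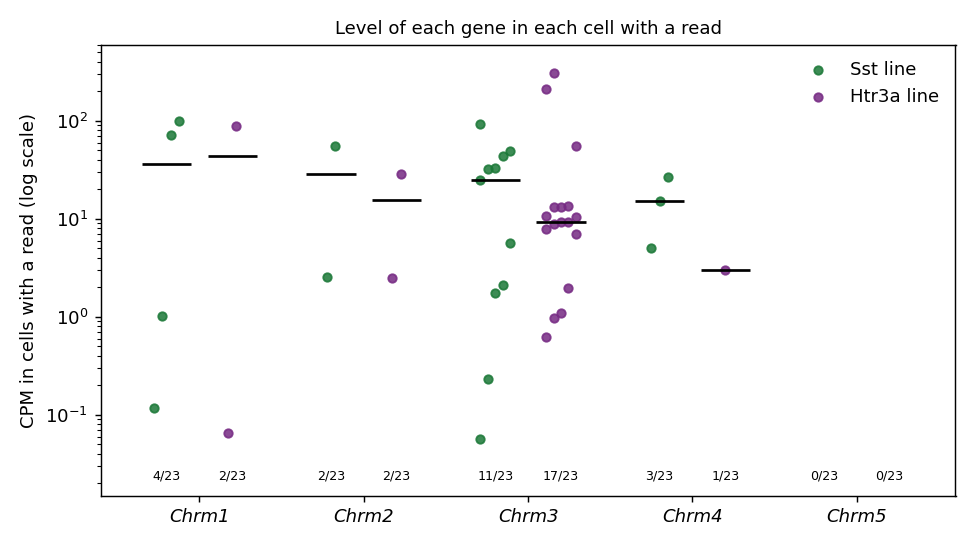
Level of each muscarinic receptor gene (CPM, log axis) in each cell with a read, Sst line left and Htr3a line right of each pair, with the median as a line and the number of cells with a read as text. Chrm3 positive cells spread from 0.0569 to 94.0 CPM in the Sst line, while 10 of 17 lie between 6.96 and 13.5 CPM in the Htr3a line.

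Over all cells, reads of Chrm3 made up 14.4 CPM of the summed counts of the Sst line (exact Poisson 95% interval 13.97 to 14.75) and 23.4 CPM of those of the Htr3a line (22.9 to 24.0). A few cells carried these sums. Cells 19 and 11 held 56.9% of the Chrm3 reads of the Sst line, and cells 5 and 4 held 71.7% of those of the Htr3a line. Without cell 19 the Sst-line sum was 8.997 CPM, and without cell 5 the Htr3a-line sum was 15.3 CPM. Without cells 4 and 20 the Htr3a-line sum was 16.01 CPM, beside 14.4 CPM in the Sst line.

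The mean log2(CPM + 1) of Chrm3 was 1.69 ± 2.39 over Sst-line cells and 2.65 ± 2.41 over Htr3a-line cells (SD between 23 cells each). The line difference, the Sst-line mean minus the Htr3a-line mean, was -0.96, which is smaller than the spread between cells of either line. It stayed negative with each cell left out in turn (-1.18 to -0.71) and was -0.82 without cells 4 and 20. It was -0.32 with a pseudocount of 10, and -2.03 on the deposited normalized values, whose units are larger. As a log2 ratio of summed CPM, with 1 added to each sum, the difference was -0.67 (-1.29 to -0.08 with each cell left out), and -0.15 without cells 4 and 20.

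Of the 5 members, 0 had a line difference of at least 1 in size, although Chrm3 passed it at -1.02 with edgeR's TMMwsp size factors and at -1.11 after thinning to 5000000 reads. Among the 11196 genes whose log2(CPM + 1) averaged 0.5 or more, 14.9% were lower in the Sst line by that much and 4.24% were higher, with a median of -0.22. Chrm3 was the only member above that minimum mean. Chrm3 was read in 6 fewer Sst-line than Htr3a-line cells. The 1444 genes read in 26 to 30 of all cells differed by a median of 2 cells in the same direction (quartiles 4 fewer to 0), and 16.97% of them by 6 cells or more, so a gap of this size was not rare.

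Chrm1 encodes the Gq-coupled receptor that is abundant in pyramidal cells of the forebrain. It was read in 4 Sst-line cells, at 100.7 CPM (858 reads, cell 15), 72.4 CPM (1127 reads, cell 20), 1.02 CPM (15 reads, cell 6) and 0.117 CPM (2 reads, cell 8). In the Htr3a line it was read in cell 3 at 88.1 CPM (1186 reads) and in cell 23 with 1 read. Chrm1 was thus high in 3 cells and near 0 or at 0 in the other cells of both lines. The 3 high cells had no read of the 8 listed pyramidal cell genes, and all 3 GABAergic genes were read in each. They held glial RNA as well, given here for Sst-line cells 15 and 20 and Htr3a-line cell 3, in that order, with ranks from the highest among all cells. Astrocyte genes summed to 444.7, 102.3 and 166.0 CPM (ranks 2, 19 and 12). Microglial genes summed to 62.4, 1709 and 697.5 CPM (ranks 40, 12 and 21). Oligodendrocyte genes summed to 190.7, 102.7 and 933 CPM (ranks 20, 29 and 9). The part of such RNA in the Chrm1 reads was not tested. Its summed level was 5.42 CPM in the Sst line, 2.48 without cell 20, and 3.45 CPM in the Htr3a line, 0.00302 without cell 3. The log2 ratio of these sums was 0.53 and lay between -0.36 and 2.68 with each cell left out, so it had no settled direction. The line difference of Chrm1 was 0.32, with 0.05 without Sst-line cell 15 and 0.61 without Htr3a-line cell 3.

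Chrm2 encodes the Gi-coupled receptor of the heart, which is also found on inhibitory axons of the hippocampus. It was read in Sst-line cells 8 (55.0 CPM, 940 reads) and 2 (2.55 CPM, 44 reads), and in Htr3a-line cells 22 (28.9 CPM, 283 reads) and 10 (2.47 CPM, 46 reads). Each line thus had 1 higher and 1 lower cell. The summed level was 2.67 CPM in the Sst line, 0.125 without cell 8, and 0.956 CPM in the Htr3a line, 0.138 without cell 22. The line difference was 0.04, or 0.01 without Htr3a-line cells 4 and 20, and its sign changed with single cells left out (-0.21 to 0.25), as did that of the log2 ratio of sums, 0.91 (-0.80 to 1.69). Htr3a-line cell 10 was also the cell with the most genes read (12693) and with the highest sum over the pyramidal genes, 250.2 CPM from 7 of the 8, and cell 22 had the third highest, 145.7 CPM from 1 gene. The part of such RNA in the Chrm2 reads of these cells was not tested. The Chrm2 cells of the Sst line had 0.0585 CPM (cell 8) and 0.0580 CPM (cell 2) of pyramidal genes. Glial sums follow for Sst-line cells 8 and 2 and Htr3a-line cells 22 and 10, in that order, with ranks from the highest. Astrocyte genes summed to 348.8, 227.4, 56.0 and 202.4 CPM (ranks 3, 8, 25 and 10). Microglial genes summed to 1572, 2980, 1648 and 68.2 CPM (ranks 14, 8, 13 and 39). Sst-line cell 2 had the lowest OLM marker sum of all cells, 2420 CPM, and Htr3a-line cell 10 the lowest GABAergic sum, 240.3 CPM. The part of glial RNA here was not tested.

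Chrm4 encodes the Gi-coupled receptor that is prominent in the striatum. It was read in Sst-line cells 3 (26.7 CPM, 476 reads), 7 (15.3 CPM, 249 reads) and 11 (5.06 CPM, 85 reads), and in Htr3a-line cell 15 (3.004 CPM, 48 reads). All 3 Sst-line cells were above the Htr3a-line cell, while the other 42 cells had 0 reads. Of the cells with Chrm4, Sst-line cell 3 had 76.2 CPM of pyramidal genes, from 2 of the 8, Htr3a-line cell 15 had 74.6 CPM from 1, and Sst-line cells 7 and 11 had 0. Sst-line cell 3 also had 337.8 CPM of astrocyte and 686.7 CPM of oligodendrocyte genes (ranks 4 and 11 from the highest). Sst-line cells 7 and 11 and Htr3a-line cell 15 ranked 29, 46 and 40 for astrocyte genes. For oligodendrocyte genes they ranked 34, 16 and 35. Cell 7 had the second highest sum over genes of other interneurons, 864.2 CPM. The part of RNA of other cells in the Chrm4 reads was not tested. The summed level was 2.19 CPM in the Sst line, 0.951 without cell 3, and 0.139 CPM in the Htr3a line, 0 without cell 15. The line difference was 0.41 (0.21 without Sst-line cell 3), and the log2 ratio of the sums was 1.49 (0.78 to 1.68 with each cell left out). By that ratio Chrm4 alone of the 5 members passed 1 in size, where 10.7% of the genes above the minimum mean were lower in the Sst line by that much and 9.83% higher. It rests on 4 cells, and Chrm4 itself was below that minimum.

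Chrm5 encodes the Gq-coupled receptor known from dopamine neurons of the midbrain. It had 0 reads in 23 Sst-line cells and 0 in 23 Htr3a-line cells, which allows a share of cells with a read of up to 13% in each line and 6.52% over all 46. The authors' annotation is not named, so the part of the gene that this 0 covers is not known. With a coding-sequence model like that of GENCODE M21, the 0 would limit reads of that sequence and not expression of the gene.

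Levels of different members were compared per kilobase of merged exon. In the Sst line the order of summed levels was Chrm3 at 2.30 CPM per kb, Chrm4 at 1.52, Chrm1 at 0.836 and Chrm2 at 0.440. In the Htr3a line it was Chrm3 at 3.75 CPM per kb, Chrm1 at 0.531, Chrm2 at 0.158 and Chrm4 at 0.0968. With each cell left out, Chrm3 ran from 1.44 to 2.46 CPM per kb in the Sst line, which overlaps the 0.660 to 1.67 of Chrm4, and Chrm1 (0.382 to 0.914) overlapped both Chrm4 and Chrm2 (0.0207 to 0.481). In the Htr3a line Chrm3 (2.44 to 3.98) stayed apart from the rest, while Chrm1, Chrm2 and Chrm4 overlapped each other. The 1.44 kb used for Chrm4 would overstate its level per kb if the authors counted over a longer gene model. Per kb, Chrm3 made up 45.1% (Sst line) and 82.7% (Htr3a line) of the summed levels of the family.

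Most cells with a muscarinic receptor transcript had 1 member, usually Chrm3. Any member was found in 15 cells of the Sst line (65.2%, 42.7 to 83.6) and, as for Chrm3, in 17 cells of the Htr3a line (73.9%). At a minimum of 10 CPM the order turned, with 10 Sst-line cells (43.5%) and 8 Htr3a-line cells (34.8%). Chrm3 alone was found in 7 cells of the Sst line and 12 of the Htr3a line. Another member without Chrm3 was read in 4 Sst-line cells and in 0 Htr3a-line cells, so every Htr3a-line cell with a muscarinic transcript had Chrm3. At least 2 members were found in 4 cells of the Sst line and 5 of the Htr3a line, of which 3 Sst-line and 4 Htr3a-line cells remained at a minimum of 5 reads per member.

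These 9 cells held different pairs. Chrm3 with Chrm4 was read in Sst-line cells 7 and 11 and Htr3a-line cell 15. Chrm3 with Chrm2 was read in Sst-line cell 8 and Htr3a-line cells 10 and 22, and Sst-line cell 8 had 2 reads of Chrm1 as well. Chrm3 with Chrm1 was read in Sst-line cell 15, which had 2 reads of Chrm3, and in Htr3a-line cells 3 and 23, of which cell 23 had 1 read of Chrm1. Chrm2 and Chrm4 were each read in 4 of 46 cells (8.70%) and never in the same cell. With so few cells, this does not show that they exclude each other.

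By coupling class, a Gq-coupled member was found in 13 cells of the Sst line and 17 of the Htr3a line. A Gi-coupled member was read in 5 Sst-line cells (21.7%, 7.46 to 43.7) and 3 Htr3a-line cells (13%, 2.78 to 33.6). Both classes were read in 3 cells of each line, so 6 of the 8 cells with a Gi-coupled member (75%) also had a Gq-coupled one. Over all 46 cells a Gq-coupled member was read in 65.2%. The cells with a Gi-coupled member alone were Sst-line cells 2 and 3.

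**Figure D3:**
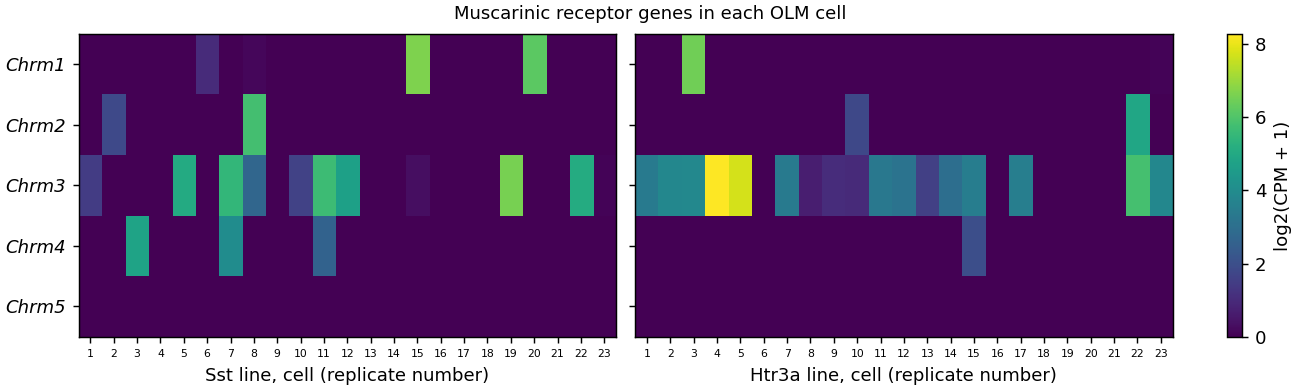
Heat map of log2(CPM + 1) of the 5 genes in each cell, Sst line left and Htr3a line right. Chrm3 is read in 28 of 46 cells, the other members appear in 1 to 4 cells of a line, and Chrm5 is at 0 throughout.

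Over all cells, detection of Chrm3 differed between cells split by genes read and not between cells split by total reads. Of the 23 cells with the most genes read (7057 to 12693), 18 had Chrm3, and of the 23 with the fewest (3225 to 7044), 10 had it. Split by line, Chrm3 was read in 5 of 9 upper and 6 of 14 lower Sst-line cells, and in 13 of 14 upper and 4 of 9 lower Htr3a-line cells. The gap between upper and lower cells was thus seen mainly in the Htr3a line, which held 14 of the 23 upper cells. Split by total reads, Chrm3 was read in 14 upper and 14 lower cells. By line these were 7 of 13 upper and 4 of 10 lower Sst-line cells, and 7 of 10 upper and 10 of 13 lower Htr3a-line cells. In the Sst line the gap was thus like that by genes read, and in the Htr3a line it ran the other way. Chrm1 was read in 5 upper and 1 lower cells by genes read, Chrm2 in 4 and 0, and Chrm4 in 2 and 2.

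As a description over cells, which share lines and perhaps animals, the Spearman correlation of Chrm3 with genes read was 0.14 over the 23 Sst-line cells and 0.35 over the 23 Htr3a-line cells. That with total reads was 0.12 over Sst-line and -0.16 over Htr3a-line cells. When every cell was thinned to 5000000 reads, which left 23 Sst-line and 22 Htr3a-line cells, the line difference of Chrm3 was -1.11. The part of genes read per cell in the line difference was not tested.

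**Figure D4:**
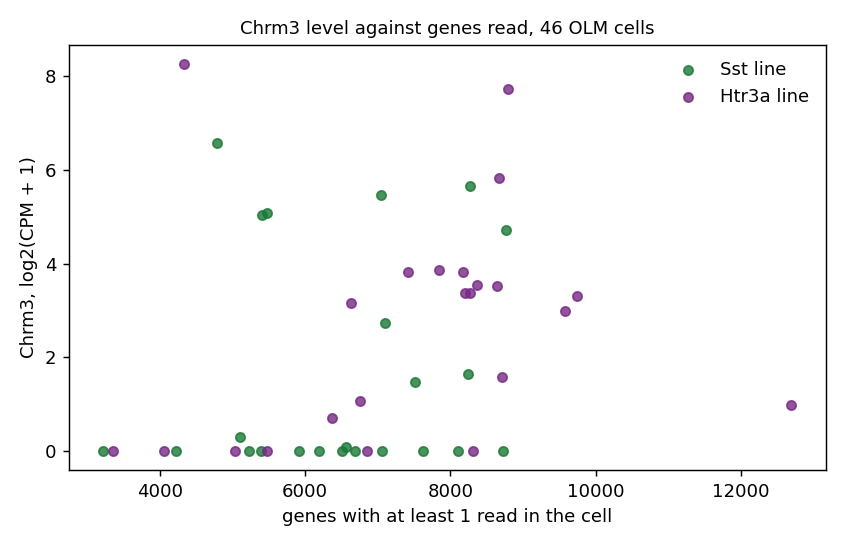
Chrm3 level, as log2(CPM + 1), against the number of genes read in each cell, for 23 Sst-line and 23 Htr3a-line cells. Of the cells with at least 7057 genes read, Chrm3 was read in 5 of 9 from the Sst line and 13 of 14 from the Htr3a line.

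Transcripts of other cell types were read beside the receptors. The microglial list of 9 genes was read in full in both lines and summed to a median of 674 CPM in Sst-line cells (0.0536 to 9702) and 477 CPM in Htr3a-line cells (0 to 8176). The oligodendrocyte list of 7 summed to a median of 196 CPM in Sst-line cells (0.473 to 5318) and 114 CPM in Htr3a-line cells (0.144 to 13310), with Cldn11 at 0 in both lines. The astrocyte list of 8 summed to 55.8 CPM in Sst-line cells (0.0596 to 444.7) and 62.6 CPM in Htr3a-line cells (0.360 to 1383), with Aqp4 at 0 in the Sst line. The pyramidal list of 8 had a median of 0 CPM in the Sst line (0 to 143.4), where Slc17a7, Slc17a6 and Emx1 were among the genes at 0, and 4.87 CPM in the Htr3a line (0 to 250.2), where all 8 were read.

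Among the cells with the most Chrm3, Htr3a-line cell 4 had the highest oligodendrocyte and astrocyte sums of all cells, 13310 and 1383 CPM, and 0 CPM of microglial genes. Htr3a-line cell 5 had 6787 CPM of microglial genes. Sst-line cell 19 had 983 CPM of microglial and 0.473 CPM of oligodendrocyte genes. Over all 46 cells the Spearman correlation of Chrm3 with these sums was 0.12 for microglia, 0.05 for oligodendrocytes and 0.25 for astrocytes. The astrocyte value was 0.04 within the Sst line and 0.43 within the Htr3a line. The part of glial RNA in the Chrm3 reads was not tested.

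Several genes that act after the Gq-coupled receptors were read in most cells. Of 14 listed Gq signalling genes, 13 were read and 10 passed the minimum mean; 2 were lower in the Sst line by at least 1, 0 were higher, and the median line difference was -0.23. Over all genes the shares were 14.9% lower and 4.24% higher and the median -0.22, so by this measure the list lay near the background. By the log2 ratio of sums, Itpr1 was higher in the Sst line at 1.99, where 9.83% of all genes were higher by at least 1. Itpr1 was read in 8 cells and was chosen after its values were seen. Gna11, a Gq-class alpha subunit, had 20 cells and a sum of 94.22 CPM in the Sst line, against 20 cells and 51.98 CPM in the Htr3a line. Plcb1, a phospholipase C activated by Gq, had 18 cells and a sum of 158 CPM in the Sst line, against 22 cells and 119 CPM in the Htr3a line. Its line difference ran the other way, at -0.34, or -0.72 without Htr3a-line cells 4 and 20. Without Sst-line cell 12 the sum of Plcb1 in that line was 119.8 CPM. Prkce, a protein kinase C, had 18 cells and a sum of 24.2 CPM in the Sst line, against 23 cells and 41.0 CPM in the Htr3a line.

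The 2 lower genes were Plcb4, another phospholipase C, chosen after its values were seen, at -1.28 (2.60 ± 3.13 in the Sst line against 3.88 ± 2.86 in the Htr3a line, SD, 23 cells each) and Prkce at -1.02 (3.52 ± 2.25 in the Sst line against 4.53 ± 1.53 in the Htr3a line). Both differences were smaller than the spread between cells of the Sst line. By the log2 ratio of sums they were -0.27 (Plcb4) and -0.74 (Prkce), and the line difference of Prkce was under 1 in size when any 1 of 18 cells was left out (-0.85 at the smallest). Of the 28 cells with Chrm3, Gna11 was read in 26 and Plcb1 in 24. Of the 18 cells without Chrm3, Gna11 was read in 14 and Plcb1 in 16. These partners were therefore common in cells with and without the receptor transcript.

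Of 11 Gi signalling genes, all were read and 10 passed the minimum mean; 2 were lower in the Sst line by at least 1 and 0 were higher, beside 14.9% and 4.24% of all genes, and the median was -0.56, beside -0.22. Gnao1 and Gnai1, alpha subunits of Go and Gi, were found in nearly all cells. Gnao1 had 22 cells and a sum of 91.4 CPM in the Sst line, against 22 cells and 151 CPM in the Htr3a line. Gnai1 had 21 cells and a sum of 368 CPM in the Sst line, against 22 cells and 360 CPM in the Htr3a line. Gnai2 was read in 20 cells of each line. Adcy2, an adenylyl cyclase, had 21 cells and a sum of 485 CPM in the Sst line, against 23 cells and 465 CPM in the Htr3a line. The lower genes were Gnaz, a pertussis toxin-insensitive relative of Gi, at -1.34 (-0.88 by sums) and Adcy3, another adenylyl cyclase, at -1.32 (-0.37 by sums). Both were chosen after their values were seen. So was Adcy9, read in 18 cells, which by sums was higher in the Sst line at 1.08, where 9.83% of all genes were higher by at least 1. Without cells 4 and 20, Gnao1 was at -1.09 in place of -0.63. The Gi machinery was thus read in far more cells than the 8 with Chrm2 or Chrm4.

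Of 15 channel genes known to be set by muscarinic receptors in neurons, all were read and 11 passed the minimum mean. By line difference none of the 11 reached 1 in size, where 14.9% of all genes were lower in the Sst line by that much and 4.24% higher. The median of the 11 was -0.40, beside -0.22 over all genes. By the log2 ratio of sums, Trpc4 (1.16) and Trpc5 were higher in the Sst line by at least 1. By that ratio 9.83% of all genes were higher and 10.7% lower by as much. Trpc4 and Trpc5 were chosen after their values were seen and were read in 12 cells each. Kcnq3, a subunit of the M-type potassium channel that Gq-coupled receptors close, had 15 cells and a sum of 66.98 CPM in the Sst line, against 13 cells and 38.8 CPM in the Htr3a line (difference 0.70, or 0.43 without cells 4 and 20). Trpc6, a cation channel opened by diacylglycerol, had 19 cells and a sum of 275 CPM in the Sst line, against 22 cells and 337 CPM in the Htr3a line (difference -0.50). Nalcn, a sodium leak channel, had 14 cells and a sum of 84.5 CPM in the Sst line, against 16 cells and 91.1 CPM in the Htr3a line (difference -0.48, or -0.81 without cells 4 and 20). Without Sst-line cell 17 the sum of Nalcn in that line was 47.6 CPM. Each of these differences was smaller than the SDs between cells.

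Of the receptor regulation list, 7 genes were measured and 5 passed the minimum mean, with 0 lower and 0 higher by 1 and a median of 0.71. Over all genes 14.9% were lower and 4.24% higher, and the median was -0.22. Adrbk2 and Adrbk1, receptor kinases that phosphorylate active receptors, had reads in most cells: Adrbk2 in 21 cells of each line, and Adrbk1 in 18 Sst-line cells and 16 Htr3a-line cells. Adrbk2 differed by 0.71 (7.03 ± 2.69 in the Sst line against 6.32 ± 2.55 in the Htr3a line) and Adrbk1 by 0.81 (3.90 ± 2.95 in the Sst line against 3.09 ± 2.75 in the Htr3a line). Grk6, another such kinase, had a line difference of -0.96 but the higher sum in the Sst line, with 16 cells and a sum of 117 CPM in the Sst line, against 19 cells and 82.4 CPM in the Htr3a line. Arrb1, a beta-arrestin, was at -0.48, or -0.79 without cells 4 and 20, with 13 cells and a sum of 53.9 CPM in the Sst line, against 17 cells and 35.5 CPM in the Htr3a line.

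Acetylcholine breakdown was represented by Ache, acetylcholinesterase, with 23 cells and a sum of 731 CPM in the Sst line, against 22 cells and 823 CPM in the Htr3a line (difference 0.37, or -0.01 without cells 4 and 20). Bche, butyrylcholinesterase, was read in 5 Sst-line cells and 3 Htr3a-line cells, with sums of 11.8 CPM in the Sst line, 3.68 without cell 4, and 0.668 CPM in the Htr3a line, 0.383 without cell 12. The log2 ratio of its sums was 2.94 (1.49 to 3.21 with each cell left out). The anchoring genes Colq and Prima1 were read in 0 cells. By line difference none of the 4 genes reached 1 in size, where 14.9% of all genes were lower in the Sst line by that much and 4.24% higher. The median of the 2 that passed the minimum mean was 0.55, beside -0.22 over all genes. The genes of acetylcholine-releasing neurons were at or near 0: Chat was at 0 in all 46 cells, and Slc18a3 and Slc5a7 were each read in 0 Sst-line cells and 1 Htr3a-line cell, at sums of 0.00871 and 0.00290 CPM in that line.

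The nicotinic subunits are the other receptors for acetylcholine, ion channels rather than G protein-coupled receptors. Of 13 genes, 9 were read and 5 passed the minimum mean, with Chrna4 lower at -1.17 (-0.94 at the smallest, and under 1 in size without cell 7, 19 or 23 of the Htr3a line), Chrnb3, chosen after its values were seen, higher at 1.30, and a median of -0.64. Among all genes 14.9% were lower and 4.24% higher by at least 1, and the median was -0.22. By sums, Chrna4 had 1.22 CPM in the Sst line, 0.0595 without cell 7, and 10.5 CPM in the Htr3a line. The log2 ratio of these sums was -2.38, within -3.44 to -1.86 when single cells were left out, and that of Chrnb3 was 1.02, within 0.62 to 2.41. Chrnb2 was read in all 23 cells of each line and Chrna7 in 14 Sst-line cells and 18 Htr3a-line cells. Without Htr3a-line cells 4 and 20, Chrna7 was at -1.02 in place of -0.64 and Chrna2 at -1.02 in place of -0.85. Both thus passed 1 in size in that setting, for which shares over all genes are not given. Chrna4 was then at -1.29, Chrnb2 at -0.41 in place of -0.27, and Chrnb3 at 1.23. With a pseudocount of 10, the 6 genes of these lists with a line difference of at least 1 in size over all cells lay between -0.71 (Gnaz) and 0.63 (Chrnb3). Chrna2, an OLM marker, was read in 13 of the 28 cells with Chrm3 and in 3 of the 18 without it. In the Sst line it was read in 4 of 11 cells with Chrm3 and 2 of 12 without, and in the Htr3a line in 9 of 17 with Chrm3 and 1 of 6 without. Of 257 other genes read in 16 cells, 15.95% were read in at least 13 of the cells with Chrm3, so such an overlap was not rare.

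**Figure D5:**
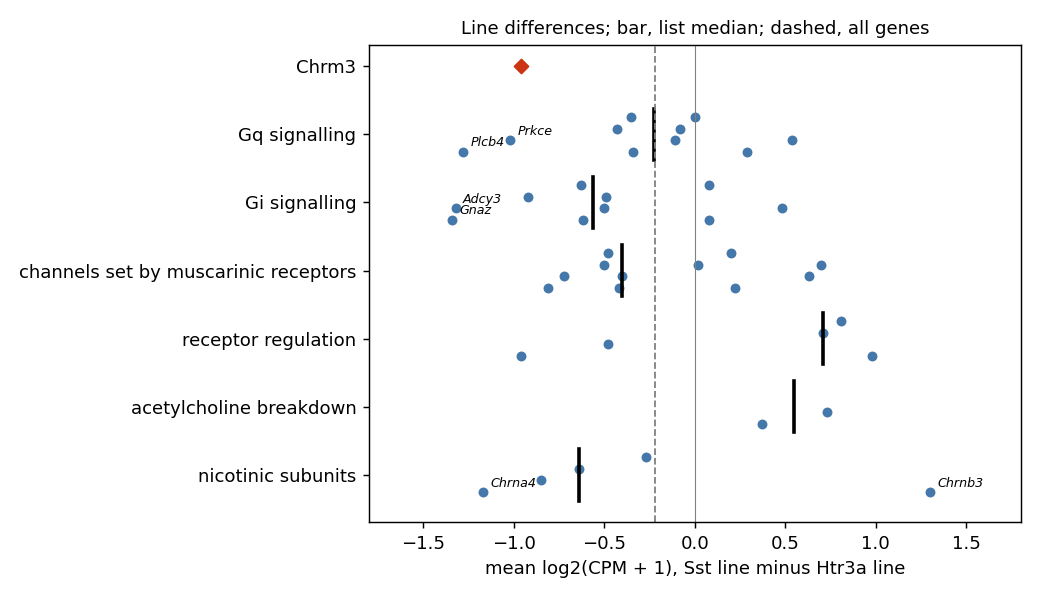
Line difference, the mean log2(CPM + 1) of the Sst line minus that of the Htr3a line, of each listed gene above the minimum mean, with Chrm3 at -0.96 as a diamond. Points are genes, black bars list medians and the dashed line the median of all genes, -0.22; the labelled genes are those at least 1 in size.

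The genes whose levels over cells were most like those of Chrm3 were taken by Pearson correlation of log2(CPM + 1), centred within each line, over 46 cells and 9400 genes. They were Tnks, which encodes tankyrase (r of 0.64, with 0.76 over Sst-line and 0.52 over Htr3a-line cells), Vimp, a selenoprotein gene (0.55), and Xrcc1, a DNA repair gene (0.54). Without Htr3a-line cells 4 and 20 the values were 0.58, 0.53 and 0.50. The 99th percentile of all 9400 correlations was 0.40 and their median 0.06. Tnks was read in 20, Vimp in 26 and Xrcc1 in 17 of the 28 cells with Chrm3. They were picked as the highest of many and the counts are sparse, so their values describe these cells only. No other muscarinic receptor gene was read in the 12 cells that this ranking required.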

How the data were processed

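RNA of 46 single cells was sequenced. The deposited tables hold raw read counts per gene, made by the authors with Trimmomatic, STAR and featureCounts on GRCm38, per the submitters' processing notes; versions, annotation and strand setting are not named there. The deposited normalized table holds a linear signal: each count divided by a factor of its cell (100% of values above 0, within 0.1%). The 5 members had identical counts in the tables by symbol and by Ensembl identifier.

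Counts were scaled to 1000000 per cell (CPM). The line difference is the mean log2(CPM + 1) of the Sst line minus that of the Htr3a line. A cell with at least 1 read counted as detected. For a share of 0, the limit is 3 cells of those examined. No test was run between lines. Alternatives were minima of 5 reads or 10 CPM, a pseudocount of 10, edgeR 4.0.16 (TMMwsp) and DESeq2 1.42.0 (poscounts) size factors, the deposited normalized signal, thinning, and each cell left out. The scripts were tested on simulated counts.

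Named genes are the members, up to 4 genes of each list with the most cells read, and the 3 genes best correlated with each member read in 12 cells. A few genes taken by this rule are left out of the text. Genes outside it are said to be chosen after their values were seen. The members and lists were chosen with earlier results of these data known. Gene models and sequences are from GENCODE M21 on GRCm38, and RefSeq gene spans from its GRCm38 table.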

Additional observations from a re-analysis of the deposited data

How the results depend on the processing

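The line differences of Chrm1, Chrm2, Chrm3 and Chrm4 kept their sign with a pseudocount of 10, under the other scalings, after thinning, by summed CPM and without Htr3a-line cells 4 and 20. With each cell left out, the sign of the Chrm2 line difference, 0.04, did not hold (-0.21 to 0.25). By summed CPM the sign did not hold for Chrm1 (-0.36 to 2.68) or Chrm2 (-0.80 to 1.69) with each cell left out. At a minimum of 10 CPM in place of 1 read, Chrm3 was found in 26.1% of Sst-line and 34.8% of Htr3a-line cells, any member in 43.5% of Sst-line and 34.8% of Htr3a-line cells, an order opposite to that at 1 read, and at least 2 members in 4.35% of Sst-line cells; the cause was not tested. Without a filter on low values, the Sst line was lower by at least 1 for 7.33% of all genes and higher for 2.08%. At full depth, 3 reads are worth 0.532 CPM in the shallowest Sst-line cell and 0.884 CPM in the shallowest Htr3a-line cell, so levels below these rest on 1 or 2 reads there. No paired analysis was possible because replicate numbers only name single cells and no animal is named.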
